A study of Sus scrofa with 8 samples.

Results

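Signals of 5 genes of G protein-coupled receptors, LPAR3, P2RY2, P2RY12, SSTR3 and RXFP4, were followed in whole blood of 4 pregnant and 4 non-pregnant sows (Sus scrofa). The genes were chosen by symbol, with earlier results of the same pregnancy comparison known, out of 2389 genes that had at least 1 named probe on the array. Their differences between the groups are therefore given as a description, with no test. The 5 genes were represented by 8 probes with 1 spot each: 3 for LPAR3, 2 for P2RY2 and 1 each for P2RY12, SSTR3 and RXFP4.

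All sows were of the fifth parity, and blood was taken from the submandibular vein 14 days after insemination. The design text describes 3 pairs of half-sibs and 1 unrelated pair, but the labels do not give which sows form a pair. Each sow had 1 single-colour Agilent porcine array, so differences between animals and between arrays cannot be told apart. Arrays of replicates 1 and 3 of both groups lay on slide 1, and those of replicates 2 and 4 on slide 2.

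G protein-coupled receptors cross the cell membrane and, when a ligand binds outside, switch on a heterotrimeric G protein inside the cell. LPAR3 is a receptor for lysophosphatidic acid, known in mice for its role in the uterus at implantation. P2RY2 responds to extracellular ATP and UTP, and P2RY12 to ADP, for which it is a main receptor of platelets. SSTR3 binds somatostatin, and RXFP4 belongs to the relaxin family receptors and binds the insulin-like peptide INSL5.

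Values below are log2 of the processed spot signal minus the 75th percentile of the same array, so that 0 marks the 75th percentile. They compare arrays for 1 probe and do not rank probes or genes. The 75th percentile itself ran from a signal of 142 on pregnant replicate 2 to 296 on pregnant replicate 1. The scanner marked 61.7% to 69.2% of an array's probes as well above background. A probe was kept if all 4 arrays of either group had that mark, which held for 26481 probes. Over these the correlation between any pair of arrays was 0.870 to 0.984, with 0.946 as the lowest once pregnant replicate 2 was left out. Of the 8 receptor probes 6 were kept, and the other 2, both of LPAR3, were not. LPAR3 and RXFP4 passed through the pregnant group alone.

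The brightest LPAR3 probe, A_72_P406683, read -4.00, -2.73, -4.14 and -2.79 in pregnant replicates 1 to 4, against -4.93, -5.51, -5.70 and -5.55 in non-pregnant replicates 1 to 4. It was well above background on 4 pregnant and 0 non-pregnant arrays, and the groups did not overlap. As processed signal these were 18.4, 21.3, 13.2 and 32.2 in pregnant sows, against 7.57, 5.42, 4.11 and 3.72 in non-pregnant sows. All of these signals are low: the weakest signal well above background on any array was 7.59. The means were -3.41 ± 0.76 in pregnant and -5.42 ± 0.34 in non-pregnant sows (SD, n = 4 each). With low values raised, the signal was 2.47-fold higher in pregnant sows. There each non-pregnant array was given the probe's own value or, where higher, the array's weakest signal well above background. That weakest signal is not a strict limit. On pregnant replicate 4 it was 9.33, while LPAR3 A_72_P204032 read 9.51 without the mark. The error that the scanner gave for these signals was 2.75 to 4.09 on pregnant and 1.98 to 2.47 on non-pregnant arrays.

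The other LPAR3 probes did not show this pattern. The brightest probe was chosen by its mean over all 8 arrays, so its pregnant values entered that choice. In non-pregnant sows alone A_72_P204032 had the higher mean, at -5.08 against -5.42 for A_72_P406683. A_72_P204032 had signals of 2.58, 2.08, 5.79 and 9.51 in pregnant sows, against 5.56, 3.58, 8.01 and 10.3 in non-pregnant sows. A_72_P515752 had signals of 3.87, 3.27, 3.28 and 3.07 in pregnant sows, against 2.76, 4.87, 4.62 and 9.23 in non-pregnant sows. Each was well above background on 0 pregnant arrays and 1 non-pregnant array, that of replicate 4. No fold is given for them, because neither group was well above background on more than 1 array.

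The brightest P2RY2 probe, A_72_P565699, read -0.69, 0.88, -0.03 and 0.17 in pregnant sows, against -1.14, -0.78, -0.93 and -1.82 in non-pregnant sows. The groups did not overlap, and the nearest arrays, pregnant replicate 1 and non-pregnant replicate 2, lay close together. The means were 0.08 ± 0.65 in pregnant and -1.17 ± 0.46 in non-pregnant sows (SD, n = 4 each), a difference of 1.25 on the log2 scale or 2.38-fold. The second P2RY2 probe, A_72_P077646, read -2.70, -3.49, -2.88 and -1.65 in pregnant sows, against -3.26, -3.19, -2.59 and -2.87 in non-pregnant sows. It was well above background on all 8 arrays. The groups overlapped there: the pregnant sow was higher in 9 of the 16 possible pairs of a pregnant and a non-pregnant sow, and the difference in means was 0.30. It was -0.04 without pregnant replicate 4 and 0.57 without pregnant replicate 2. Both probes carry the same gene name, and only the brighter one separated the groups.

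P2RY12 was measured by A_72_P005146, which was well above background on all 8 arrays. It read -2.50, -2.85, -2.94 and -2.55 in pregnant sows, against -1.73, -4.58, -3.06 and -3.01 in non-pregnant sows. Non-pregnant replicate 1 was the highest of the 8 arrays and non-pregnant replicate 2 the lowest, so the pregnant sows lay inside the range of the non-pregnant ones. The means were -2.71 ± 0.22 in pregnant and -3.10 ± 1.16 in non-pregnant sows (SD, n = 4 each), a difference of 0.38. Leaving out 1 non-pregnant sow moved it by more than 1.5 times: it was -0.11 without replicate 2 and 0.84 without replicate 1.

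P2RY12 is a platelet receptor, and 7 of 15 listed platelet markers were measured. Their mean level, centred over the arrays, ran from -0.33 to 0.04 in pregnant sows and from -0.10 to 0.60 in non-pregnant sows. It was highest in non-pregnant replicate 1, also the highest for P2RY12. Next came non-pregnant replicate 2 at 0.14, the lowest for P2RY12. The part of the platelet markers in the P2RY12 values was not tested. In whole blood, fewer cells of a type and less RNA per cell cannot be told apart. None of the 12 listed erythroid markers had a named probe, and T, NK and B cell, neutrophil and monocyte markers were all measured. The means were lower in pregnant sows for 8 of 8 T cell, 4 of 4 NK cell, 2 of 2 B cell, 6 of 7 platelet and 2 of 5 neutrophil markers, and higher for 4 of 4 monocyte markers. None passed the limma test (adjusted p = 1.0 for each). In 2 of the 8 T cell markers, CD3D and CD8A, the groups did not overlap, against 1.16% of named genes other than the receptors. The CD8A spot lies in the array area described below, where the groups did not overlap in 6.67% of kept probes. CD3D differed by -0.60 and its other kept probe by -0.22, and CD8A by -0.56 and its other kept probe by -0.64. The centred monocyte level ran from -0.0009 to 0.35 in pregnant and from -0.55 to -0.06 in non-pregnant sows, without overlap. That of NK cells ran from -0.44 to -0.07 in pregnant and from -0.01 to 0.55 in non-pregnant sows, also without overlap. The T cell, B cell, neutrophil and platelet levels overlapped. The part of cell composition in the receptor values was not tested.

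SSTR3, measured by A_72_P186336, read 0.17, 1.15, 0.71 and 0.40 in pregnant sows, against -0.52, -0.37, -0.16 and -0.63 in non-pregnant sows. The groups did not overlap, and all 8 arrays were well above background. The means were 0.61 ± 0.42 in pregnant and -0.42 ± 0.20 in non-pregnant sows (SD, n = 4 each), a difference of 1.03 or 2.04-fold. RXFP4, measured by A_72_P177901, read -3.33, -1.81, -3.13 and -2.51 in pregnant sows, against -3.64, -4.08, -3.59 and -4.59 in non-pregnant sows. It was well above background on 4 pregnant and 3 non-pregnant arrays, all but that of non-pregnant replicate 4. The means were -2.69 ± 0.68 in pregnant and -3.97 ± 0.46 in non-pregnant sows (SD, n = 4 each), and the groups did not overlap. With non-pregnant replicate 4 set at that array's weakest signal well above background, the difference was 1.23, or 2.35-fold. Normexp background correction was run with an offset of 50 added to each signal, which by itself narrows log2 differences between low signals. Under it the difference was -0.80 for LPAR3, -0.71 for RXFP4, -0.70 for P2RY12, 0.18 for P2RY2 A_72_P565699 and 0.40 for SSTR3. Once local backgrounds marked by the scanner as outliers were replaced by the array median, it was 0.27, 0.32, 0.05, 0.83 and 0.79 in the same order of genes.

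**Figure D1:**
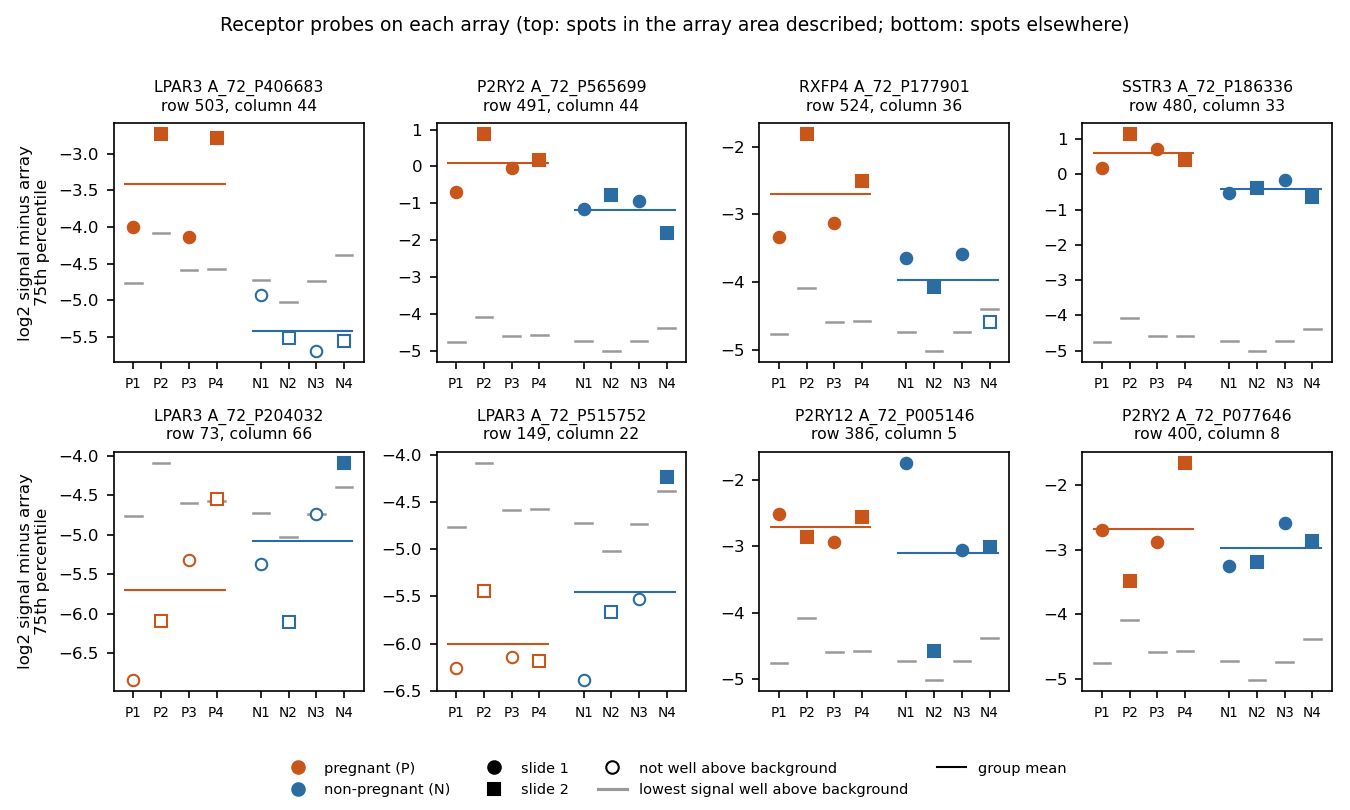
Log2 processed signal minus the array's 75th percentile (y axis, a separate scale in each panel) for the 8 receptor probes on 4 pregnant (P1 to P4) and 4 non-pregnant (N1 to N4) arrays, with group means, slide by symbol shape and open symbols for spots not well above background. The 4 probes of the upper panels separate the groups, and the 4 of the lower panels do not.

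Across the 8 probes the groups did not overlap in 4, with pregnant sows higher in each. Over all 26481 kept probes, 1.57% had groups that did not overlap in either direction, 0.895% with pregnant sows higher, and 0.491% with pregnant sows at least 2-fold higher. Because the genes were chosen from this comparison, nothing is read from that difference. Limma called 0 of the 26481 probes between the groups (smallest adjusted p = 0.525), while 608 had an unadjusted p under 0.05. Pregnant replicate 2 was the highest array in 4 of the 5 brightest probes, and non-pregnant replicate 4 the lowest in 3. By processed signal without scaling these counts were 2 and 4.

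The 4 probes that separated the groups lie near each other on the array. Place itself was not used to choose the genes. It is not independent of the choice, because most probes with such a difference lie there. The array has 532 rows and 85 columns of spots. LPAR3 A_72_P406683 lies at row 503 and column 44, P2RY2 A_72_P565699 at row 491 and column 44, SSTR3 at row 480 and column 33, and RXFP4 at row 524 and column 36. The 4 probes that did not separate the groups lie elsewhere, between rows 73 and 400, and the 2 of them that were kept differed by 0.30 (P2RY2) and 0.38 (P2RY12).

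Nearly all probes with such a difference lie in the same place, and the counts below include the 4 receptor probes. Of the 130 kept probes at least 2-fold higher in pregnant sows with groups that did not overlap, 127 lie in rows 421 to 532, and 1 in each of the rows 1 to 140, 141 to 280 and 281 to 420. An area of rows 421 to 532 and columns 18 to 68, drawn after these positions were seen, holds 12.5% of the kept probes and 123 (94.6%) of the 130. This is 3.73% of the 3299 kept probes in the area, against 0.0302% of the 23182 elsewhere. In either direction and at any fold, the groups did not overlap in 6.67% of kept probes in the area, against 0.841% elsewhere. The 27 probes (0.102% of those kept) at least 2-fold lower in pregnant sows with no overlap were spread over the array, with 3 in the area. The median difference of all kept probes was 0.01 in the area, against -0.05 elsewhere. The count of 130 became 257 when pregnant replicate 1 was left out, and 270 when non-pregnant replicate 3 was, and 66.7% or more of such probes lay in the area with any 1 array left out.

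**Figure D2:**
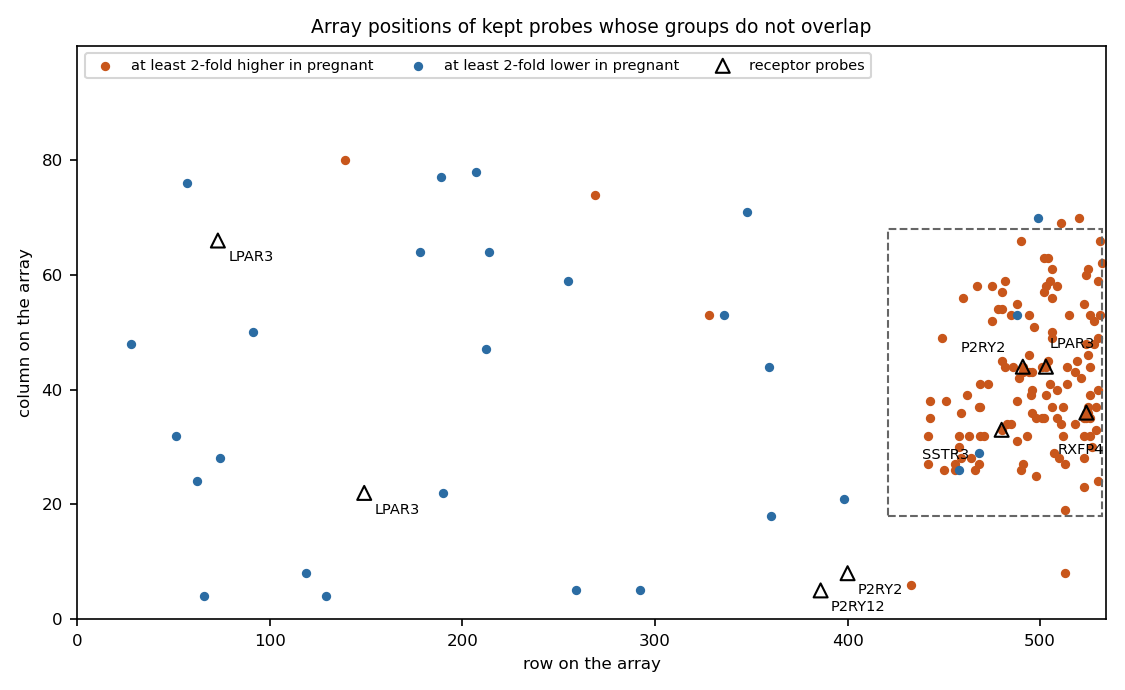
Row (x axis) and column (y axis) on the array of the kept probes at least 2-fold higher (130, orange) or lower (27, blue) in pregnant sows with groups that did not overlap, with the 8 receptor probes as triangles and the area drawn as a dashed line. Of the orange points 123 lie inside the area, with 1 receptor probe each of LPAR3, P2RY2, SSTR3 and RXFP4.

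The share of such probes in the area was higher among dim probes. With a mean processed signal under 20 it was 14.3% of 245 probes in the area, against 0.269% of 1860 elsewhere. Between 20 and 60 it was 6.1% of 836 in the area, against 0.018% of 5676 elsewhere. Between 60 and 200 it was 3.35% of 866 in the area, against 0.017% of 5874 elsewhere. Above 200 it was 0.592% of 1352 in the area, against 0 of 9772 elsewhere. By this mean, taken on the log scale over the 8 arrays, LPAR3 A_72_P406683 falls in the lowest class, RXFP4 in the class of 20 to 60, P2RY2 A_72_P565699 in that of 60 to 200 and SSTR3 in the highest.

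Some probes are printed in several copies, which allows the area to be set against the rest of the same array for 1 sequence and 1 RNA. There were 28 probes with copies in and outside the area and a mean signal of at least 8, of which 18 were array probes and 10 control probes. Copies in the area minus copies elsewhere differed between pregnant and non-pregnant arrays by a median of 0.04 on the log2 scale, and by less than 0.5 to either side in 23 of the 28. In 5 probes this contrast was larger on pregnant than on non-pregnant arrays by 0.5 or more, and in 0 smaller by as much. In these 5 the copies in the area minus those elsewhere averaged -0.17 to 0.40 on pregnant arrays and -1.20 to -0.28 on non-pregnant arrays. In A_72_P360693 the average was 0.40 on pregnant and -0.28 on non-pregnant arrays, so there the larger part lay on the pregnant side. The 5 were dim, with mean signals of 16.9 to 25.6, but the other 5 copied probes as dim as these differed by only -0.03 to 0.27.

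The control probe (+)eQC-42 differed the most, with 2 copies in the area and 8 elsewhere. Its copies in the area minus those elsewhere were -0.02, -0.52, -0.08 and 0.59 in pregnant sows, against -1.33, -1.04, -1.03 and -1.16 in non-pregnant sows. The copies of 1 control probe in 1 RNA therefore differed by place on the non-pregnant arrays, and by 1.13 more there than on the pregnant ones. The groups did not overlap in this probe, and did in the other 27. Blank spots, negative controls that should bind no RNA, had median signals of 2.35 to 2.55 in pregnant and 1.88 to 2.29 in non-pregnant sows within the area, and 1.91 to 2.35 in pregnant and 1.72 to 2.01 in non-pregnant sows elsewhere. The part of array position in the receptor differences was not tested, and none of the 5 genes has a second probe in the area.

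**Figure D3:**
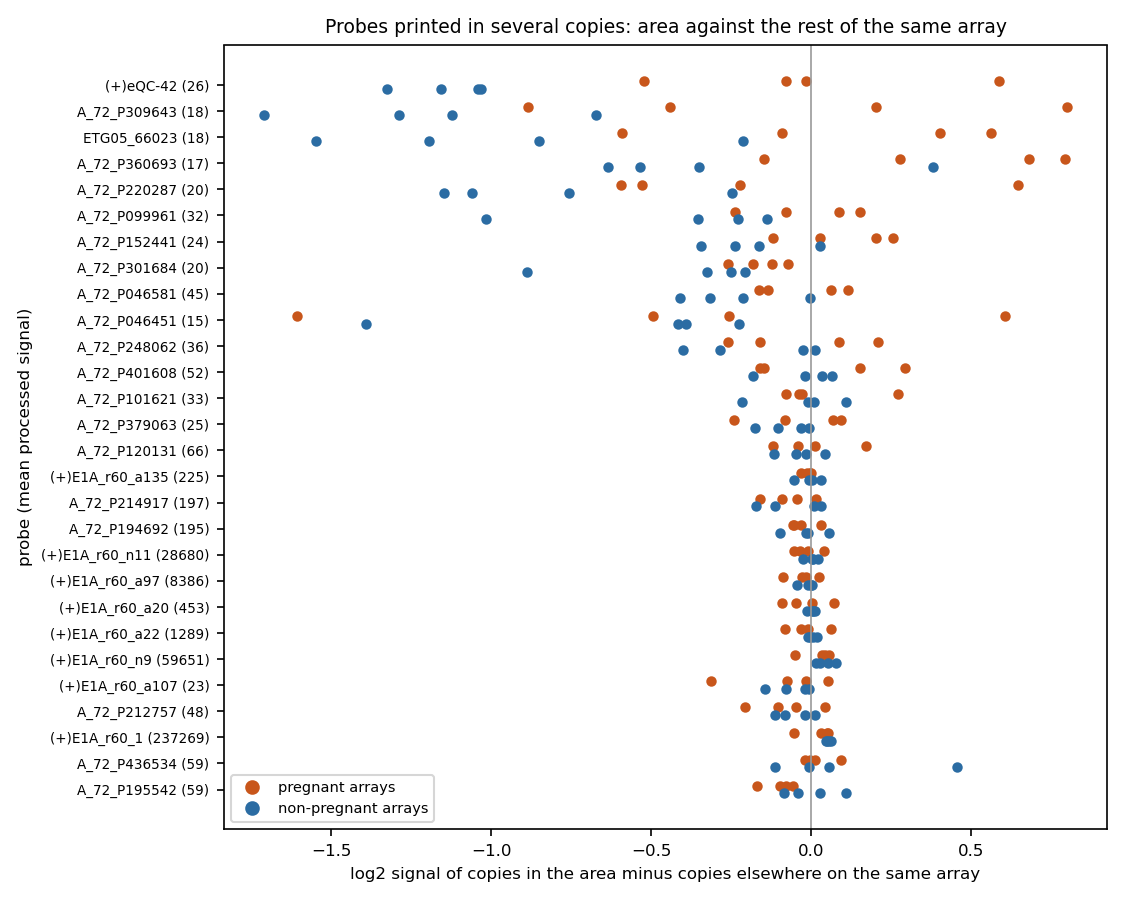
Log2 signal of copies in the area minus copies elsewhere on the same array (x axis) for 28 probes printed in several copies (y axis, mean processed signal in brackets), with pregnant arrays in orange above non-pregnant arrays in blue. Bright probes lie near 0 in both groups. In the 5 dim probes at the top, the value averages lower on non-pregnant than on pregnant arrays by 0.5 or more.

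The differences were larger on slide 2 than on slide 1 for P2RY2 A_72_P565699 (0.67 on slide 1 and 1.83 on slide 2) and SSTR3 (0.78 and 1.28). For RXFP4 the difference was 0.39 on slide 1. It was 2.07 on slide 2 with non-pregnant replicate 4, not well above background there, raised as before. LPAR3 values on the non-pregnant arrays, none well above background, were raised likewise. The LPAR3 difference was then 0.66 on slide 1 and 1.95 on slide 2, which gives no order of the slides. P2RY12 was -0.33 on slide 1 and 1.09 on slide 2. Its highest sow, non-pregnant replicate 1 (-1.73), lay on slide 1 and its lowest, non-pregnant replicate 2 (-4.58), on slide 2. Each slide holds 2 arrays of each group. The change of the pregnancy difference between the slides was tested with the interaction term of limma over all kept probes, which called 0 probes (smallest adjusted p = 0.895). It was 1.15 with a standard error of 0.70 for P2RY2 A_72_P565699 and 0.50 with a standard error of 0.61 for SSTR3 (limma adjusted p = 1.0 for each). Without scaling of the arrays these were 0.69 and 0.04. For P2RY12 the change was 1.42 with a standard error of 0.88, and 0.95 without scaling. No estimate is given for LPAR3 and RXFP4, which have signals not well above background in non-pregnant sows. Slide itself called 0 probes (smallest adjusted p = 1.0). The unadjusted p lay under 0.05 in 1475 probes for the interaction and in 733 for slide.

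Within the groups, the receptors varied together from sow to sow to unlike degrees. After each group's mean was taken off, the brightest probes of P2RY2 and RXFP4 correlated at r = 0.877 and those of P2RY2 and SSTR3 at r = 0.857 over the 8 arrays. SSTR3 and RXFP4 gave 0.744, LPAR3 and RXFP4 0.754, LPAR3 and P2RY2 0.577, and LPAR3 and SSTR3 0.283. The 6 pairs of the 4 probes in the area ran from 0.283 to 0.877, and the 4 pairs with P2RY12 from -0.289 to 0.280. Without scaling of the arrays LPAR3 and SSTR3 gave -0.072. Pregnant replicate 2 weighed on these values: without it P2RY2 and RXFP4 gave 0.765, P2RY2 and SSTR3 0.719, and SSTR3 and RXFP4 0.439. Also without it LPAR3 gave 0.619 with RXFP4, 0.336 with P2RY2 and -0.257 with SSTR3. Values of LPAR3 on the 4 non-pregnant arrays were not well above background, and enter its correlations here and below as measured. These are descriptions over 8 arrays that share slides, scaling and, for 4 of the probes, an area of the array. How many other gene pairs reach such values is not given here.

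The 3 named genes whose pattern was most like each receptor, by the same measure among 1812 genes, had r between 0.874 and 0.986. They were EIF1B, WDTC1 and SLC22A7 for LPAR3, and RAI14, TNNI3 and the chemokine CCL19 for P2RY2. For P2RY12 they were the chemokines CXCL10 and CCL8 and the peptide hormone endothelin gene EDN1. For SSTR3 they were TEPP, RAMP3, which helps receptors reach the cell surface, and the nociceptin receptor OPRL1. For RXFP4 they were HAND1, the steroid enzyme CYP21A2 and again WDTC1. Of the 15 places, 7 were taken by probes in the area of the array, with WDTC1 counted for both LPAR3 and RXFP4. The area holds 12.5% of all kept probes, but its share of the 1812 genes is not given here. Among the 7 was EDN1 for P2RY12, whose own spot lies elsewhere. Without pregnant replicate 2, 7 of the 15 were named again, and none of those for LPAR3.

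Ligands, other receptors, G proteins and effectors were looked up in 8 lists of 199 genes. The largest list, of 73 genes, holds other G protein-coupled receptors that are not of these pathways. The array had a named probe for 56 of them, and 32 were measured. Of the 32, 20 were higher in the mean in pregnant sows and 12 lower, with a median difference of 0.13. The list of other receptors supplied 16 of the 32, with 12 higher and 4 lower. Among all 1812 named genes other than the 5 receptors, these 32 included, 44.3% were higher, with a median of -0.04. In none of the 32 did the groups separate, against 1.16% of the 1812, and 0 passed the limma test (adjusted p = 1.0 for each), with 2 at an unadjusted p under 0.05. The 9 measured in the area had a median difference of 0.14, and the 23 elsewhere 0.12.

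The somatostatin gene SST, whose product is the ligand of SSTR3, was not well above background on any of the 8 arrays. Nor were RLN3 and INSL3 of the relaxin peptide family. RLN2, a relaxin gene, was well above background on 3 pregnant and 3 non-pregnant arrays. These 4 were named after their values were seen.

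Among other members of the same families the groups overlapped in every gene measured. LPAR2, another lysophosphatidic acid receptor, differed by -0.19 (SE 0.27, limma adjusted p = 1.0). PLPP2, a phosphatase that breaks down lysophosphatidic acid, read 0.06, -0.49, -0.21 and -0.65 in pregnant sows, against 0.53, 0.06, -0.26 and 0.79 in non-pregnant sows. The centred mean level of LPAR2 and PLPP2 ran from -0.40 to -0.03 in pregnant and from 0.03 to 0.50 in non-pregnant sows, without overlap. The levels of the other receptor signalling lists overlapped. How many other gene pairs would separate in this way is not given here. S1PR5, a receptor for the related lipid sphingosine 1-phosphate, was lower in the mean in pregnant sows by 0.63 on the log2 scale, and its other kept probes by 0.39 to 0.58 (limma adjusted p = 1.0). SSTR1 and SSTR5 differed by 0.02 and -0.24.

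ENTPD1, the enzyme CD39 that removes extracellular ATP and ADP, read -1.01, -3.56, -2.73 and -1.21 in pregnant sows, against -0.55, -0.85, -1.18 and -1.28 in non-pregnant sows. Pregnant replicates 2 and 3 were low and the other pregnant sows lay within the non-pregnant range. Its mean difference was -1.17 (SE 0.54, limma adjusted p = 1.0), and its other kept probes gave -1.01 and 0.14. Without pregnant replicate 2 it was -0.69. MC3R, a melanocortin receptor whose spot lies in the area, was the other list gene at least 2-fold apart. It read -1.07, -2.58, -2.65 and -1.20 in pregnant sows, against -2.50, -3.77, -2.50 and -3.27 in non-pregnant sows, and the groups overlapped.

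Of the other 16 measured receptors, 12 were higher in the mean in pregnant sows, among them the adrenergic receptor ADRA2A at 0.45 and CALCRL, a calcitonin-like receptor, at 0.41, whose other probe gave -0.44. Of the 6 measured G protein subunits 4 were higher and 2 lower: GNAQ, which couples receptors to phospholipase C, differed by -0.35, GNG12 by 0.28 and GNAI3, of the inhibitory class, by 0.19. Among 4 effectors and regulators, the phosphodiesterase PDE4B differed by -0.46, PRKAR1A, a regulatory subunit of protein kinase A, by 0.29 and RGS2, which turns G proteins off, by 0.14. The other kept probes gave -0.16 and -0.07 for PDE4B and -0.44 to -0.10 for PRKAR1A, opposite to its brightest. None of these passed the limma test (adjusted p = 1.0 for each).

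**Figure D4:**
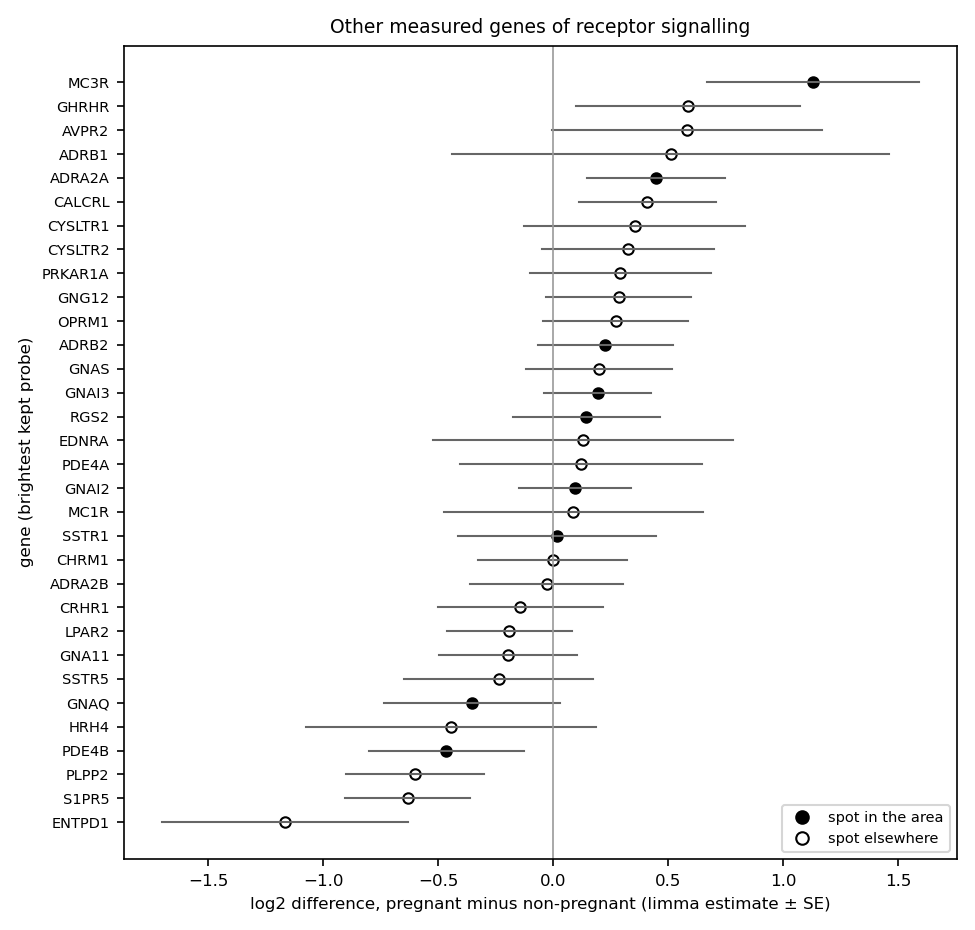
Log2 difference, pregnant minus non-pregnant (x axis, limma estimate with its standard error), for the brightest kept probe of each of the 32 measured genes of the lists (y axis), with filled symbols for the 9 spots in the area. MC3R, in the area, lies at 1.13 and ENTPD1, elsewhere, at -1.17.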

How the data were processed

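Per the file headers, the 8 scanner files that the authors deposited came from Agilent Feature Extraction 10.7.3.1, given as 10.7 in the submitters' processing notes. The processed signal used here is a linear intensity from which, per the file headers, the scanner software had subtracted background and a spatial trend. A deposited table of log2 values served as an alternative. No source used here says how it was normalized. Its columns correlated with the log2 processed signal at r of 0.99895 or more, and its quartiles were the same on all arrays within 0.01.

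Control spots and outlier spots were left out, spots of a probe averaged, and each array's log2 signals taken relative to its 75th percentile. Of 43603 probes, 215 were dropped and 26481 kept. Of 5779 RefSeq probes, 5461 matched 2389 symbols in the Sscrofa11.1 table, used for names only. Limma 3.58.1 in R 4.3.3 (lmFit and eBayes, two-sided, Benjamini-Hochberg over all kept probes, threshold 0.05) fitted group, and group, slide and their interaction. A gene of a list was represented by its brightest kept probe.

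The receptors, lists, rules and alternatives were chosen with earlier results of these data known. Named were every receptor probe, up to 3 genes of smallest unadjusted p per list and the 3 most alike genes per receptor. The number of arrays limits the precision. Python 3.11.15 with pandas 2.3.3 and matplotlib 3.10.9 served for tables and plots. No spot was saturated (0 on each array).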

Additional observations from a re-analysis of the deposited data

Results flagged for a closer look

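Among 40 groups of 4 sows (8 receptor probes and 12 gene lists with more than 1 measured gene), 3 held 1 sow whose value stood further from the other 3 than Dixon's test allows, a limit that chance passes in about 1 in 20 groups. For LPAR3 A_72_P515752, which was not well above background on any of the 4 pregnant arrays, the highest pregnant sow read -5.44 and the others -6.26 to -6.14. The T cell marker level of the lowest non-pregnant sow was -0.0057, against 0.22 to 0.256 in the others. The B cell marker level of the highest pregnant sow was 0.175, against -0.2687 to -0.2025 in the others.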

How the results depend on the processing

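The number of probes called between the groups was 0 under all 22 alternatives run, among them the replicate block (0, smallest adjusted p = 1.0), and 0 likewise for slide and for the interaction under 6 each. Replicate numbers were not shown to mark pairs: same-numbered sows had correlations of deviations of 0.218, 0.481, 0.434 and -0.117, and 2 of 4 correlated best with their own number. Normexp background correction with local backgrounds as given turned LPAR3 to -0.80, P2RY2 A_72_P077646 to -0.74, P2RY12 to -0.70 and RXFP4 to -0.71, and gave 0.18 for P2RY2 A_72_P565699 and 0.40 for SSTR3. It used median spot signals, the mean not being analysed here, and local backgrounds that the scanner in part marked as outliers. An offset of 50 was added to each signal, which by itself narrows log2 differences between low signals. With those marked replaced by the array median, chosen after seeing the data, LPAR3 was 0.27, RXFP4 0.32, P2RY2 A_72_P077646 0.14 and P2RY12 0.05. LPAR3 and RXFP4 still lay below their main values of 2.01 and 1.28. The parts of the marked backgrounds, the offset and the median signals in these values were not tested. The mean of all LPAR3 probes was 0.28, with 2 of the 3 well above background on only 1 array each. On slide 1 alone LPAR3 was 1.25, P2RY2 A_72_P565699 0.67 and RXFP4 0.39, and on slide 2 alone 2.77, 1.83 and 2.17. Leaving out 1 array gave 1.78 to 2.25 for LPAR3, 0.98 to 1.51 for P2RY2 A_72_P565699, 0.85 to 1.18 for SSTR3 and 0.99 to 1.49 for RXFP4.

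The count of probes at least 2-fold higher in pregnant sows with no overlap, 130, was added after seeing the data. It was 6 with normexp and 14 with marked backgrounds replaced, both with the offset that narrows differences between low signals. The count was 61 with all 8 arrays well above background and 214 with no filter. On slide 1 alone it was 247 and on slide 2 alone 1563, where fewer arrays make separation easier. Leaving out 1 array gave 116 to 270 (257 without pregnant replicate 1, 270 without non-pregnant replicate 3). The share in the area, 94.6%, was 50% with normexp, 34.0% on each slide alone and 66.7% to 93.2% with 1 array left out. The LPAR3 and RXFP4 values here include non-pregnant signals that were not well above background, taken as measured and therefore uncertain.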
